A study of Mus musculus with 10 samples.

Results

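Genes of the smooth muscle contractile apparatus and of actin binding were examined as a set of 38 named genes, chosen by gene name from the 47643 genes listed for each library. All 38 were present, each was read in every library, and each passed the filter on low counts. From textbook knowledge, 19 were placed among genes restricted to, or enriched in, smooth and other muscle (Acta2, Myh11, Tagln, Cnn1, Actg2, Lmod1, Mylk, Synpo2, Smtn, Tpm2, Csrp1, Pdlim3, Ppp1r12b, Ppp1r14a, Myocd, Dmd, Sgcd, Synm and Ldb3) and 19 among genes used by mesenchymal cells at large. The libraries came from mesenchymal cells of Peyer's patches, the lymphoid follicles of the small intestinal wall, sorted from mice of the C57BL/6 strain. All cells were podoplanin-positive and negative for CD45, EpCAM1, TER119 and CD31, and the groups were parted by MAdCAM1, an adhesion molecule bound by lymphocytes. MRC denotes the MAdCAM1-positive cells (n = 5 libraries) and MCi the MAdCAM1-negative cells (n = 5 libraries). RNA was amplified with a kit for ultra-low input before sequencing, and libraries held 3941032 to 8738115 total exon reads. The labels give no genotype or age, and do not say whether each library came from separate mice, so p-values measure the spread between these libraries, which may be technical. Libraries MRC4 and MRC5 stood apart from MRC 1 to 3 in epithelial transcripts, and the main counts are also given without them. In the sum of epithelial markers, MRC3 (1837 CPM, exon reads scaled to library size) also exceeded every MCi library (up to 782 CPM).

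Smooth muscle contracts when calcium-bound calmodulin activates myosin light chain kinase, which phosphorylates the regulatory light chain of myosin and lets the motor pull on actin. A phosphatase targeted to myosin reverses this step. The genes of this apparatus are driven largely by the serum response factor SRF, which binds CArG boxes in their promoters together with cofactors such as myocardin. In the gut the apparatus is found in the muscle layers, in the walls of vessels and in myofibroblasts, and fibroblastic stromal cells of lymphoid organs also contain smooth muscle actin.

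Promoter sequences are shown for the 5 genes whose levels passed the test between the groups, since these are the genes the comparison turns on. They are the 250 bases before the RefSeq start site on GRCm38.p6, written 5′ to 3′ on the strand of the gene. Capitals mark a CArG box or the MCAT core CATTCC, the site of TEAD factors, on either strand. The Tpm2 window held neither. A CArG box was taken as CCWWWWWWGG (W for A or T) with no mismatch. Near forms were neither marked nor counted, such as ccctatatgg and ccttgtttgg in the Acta2 window.
Acta2, chr19:34255374-34255623, minus strand: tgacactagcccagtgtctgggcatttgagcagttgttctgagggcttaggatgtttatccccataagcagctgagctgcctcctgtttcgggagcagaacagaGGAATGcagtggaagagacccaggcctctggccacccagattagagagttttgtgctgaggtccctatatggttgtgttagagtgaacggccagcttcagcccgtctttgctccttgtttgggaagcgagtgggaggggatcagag
Myl9, chr2:156775214-156775463, plus strand: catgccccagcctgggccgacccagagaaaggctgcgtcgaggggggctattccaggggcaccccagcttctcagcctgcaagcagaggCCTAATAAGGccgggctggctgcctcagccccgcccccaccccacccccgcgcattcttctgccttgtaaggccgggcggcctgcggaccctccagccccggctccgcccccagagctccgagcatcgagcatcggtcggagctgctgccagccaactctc
Tpm2, chr4:43523555-43523804, minus strand: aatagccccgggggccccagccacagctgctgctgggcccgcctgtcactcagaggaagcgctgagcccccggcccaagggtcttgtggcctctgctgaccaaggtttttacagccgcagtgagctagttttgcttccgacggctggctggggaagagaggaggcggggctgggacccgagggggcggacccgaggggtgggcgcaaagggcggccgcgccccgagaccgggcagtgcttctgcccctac
Pdlim3, chr8:45885237-45885486, plus strand: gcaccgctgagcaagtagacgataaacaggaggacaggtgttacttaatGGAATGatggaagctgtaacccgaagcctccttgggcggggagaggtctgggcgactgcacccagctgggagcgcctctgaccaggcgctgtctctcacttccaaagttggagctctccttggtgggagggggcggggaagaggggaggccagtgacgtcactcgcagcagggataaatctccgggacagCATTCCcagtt
Lima1, chr15:99820150-99820399, minus strand: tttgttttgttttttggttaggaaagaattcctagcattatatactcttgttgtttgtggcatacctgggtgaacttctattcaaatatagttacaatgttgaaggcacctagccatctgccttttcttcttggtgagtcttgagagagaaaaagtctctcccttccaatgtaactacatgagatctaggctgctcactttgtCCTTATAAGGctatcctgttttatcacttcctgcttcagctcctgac
A CArG box was also found upstream of 8 further start sites of 7 genes, shown with up to 25 bases on each side. The box of Ldb3 lay in the windows of both its start sites, which overlap.
Cnn2, chr10:79988519-79988578, plus strand: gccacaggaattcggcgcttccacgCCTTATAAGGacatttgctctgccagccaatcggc
Myl6, chr10:128493025-128493084, minus strand: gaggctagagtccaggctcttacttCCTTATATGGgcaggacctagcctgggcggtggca
Vcl, chr14:20929148-20929205, plus strand: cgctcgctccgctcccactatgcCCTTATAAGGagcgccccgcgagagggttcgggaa
Ldb3, chr14:34588682-34588741, minus strand: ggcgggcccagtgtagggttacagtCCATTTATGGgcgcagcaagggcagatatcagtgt
Srf, chr17:46556190-46556269, minus strand: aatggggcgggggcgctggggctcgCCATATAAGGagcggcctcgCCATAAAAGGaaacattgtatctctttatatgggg
Fhl1, chrX:56779556-56779615, plus strand: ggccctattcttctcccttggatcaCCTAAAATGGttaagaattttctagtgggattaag
Dmd, chrX:82948747-82948806, plus strand: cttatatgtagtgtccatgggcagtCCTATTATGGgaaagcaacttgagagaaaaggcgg
Of the 38 genes, 34 had an entry in the RefSeq promoter table, with 44 start sites. Myh11, Actg2, Myocd and Tagln had none. A CArG box lay in the 250 bases before 10 of these 44 start sites (9 of 34 genes), compared with 1.47% of the 32851 promoters in the table. CATTCC or its reverse complement lay before 15 of 44, compared with 12.6% of all promoters, and Vcl held both motifs without overlap between them. A match describes letters and not a bound site. The Lima1, Myl6 and Fhl1 windows that held a box lay inside the listed spans of these genes, at start sites downstream of their upstream ends. For Lima1 the upstream end was not searched. Of the 9 genes with a CArG box, only Myl9 and Lima1 passed the test between the groups. Log2 fold changes (MRC minus MCi) were −1.53 for Myl9, −0.73 for Dmd, −0.72 for Vcl, −0.68 for Fhl1, −0.51 for Cnn2 and −0.23 for Myl6. They were 1.01 for Lima1, 2.67 for Ldb3 and 0.02 for Srf, which holds a pair of boxes. Genes with near forms only, or with no entry, are outside this list, so a link of the box to direction was not tested.

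Of the 38 genes, 4 fell in MRC (Acta2, Pdlim3, Tpm2 and Myl9) and 1 rose (Lima1), compared with 0.363% of 12127 genes called lower and 0.0742% called higher in MRC (edgeR quasi-likelihood test, Benjamini-Hochberg adjusted p under 0.05 over all genes). The other 33 did not pass. Among the 19 muscle-restricted genes, 3 fell, 16 did not pass and 18 had a log2 fold change (MRC minus MCi) below 0, with a median of −0.79. Among the 19 genes of mesenchyme at large, 1 fell, 1 rose, 17 did not pass and 16 were below 0, with a median of −0.47. Over all genes tested the median was 0.01, and 49% were below 0. At an unadjusted p under 0.05, 20 genes of the set were lower and 2 higher, compared with 6.09% and 10.6% of all genes. For 10 genes every MRC library lay below every MCi library, which held for 2.69% of all genes, and for 1 gene every MRC library lay above, which held for 1.1%. In sorted populations, fewer cells of a contractile type and less RNA per cell cannot be told apart.

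**Figure D1:**
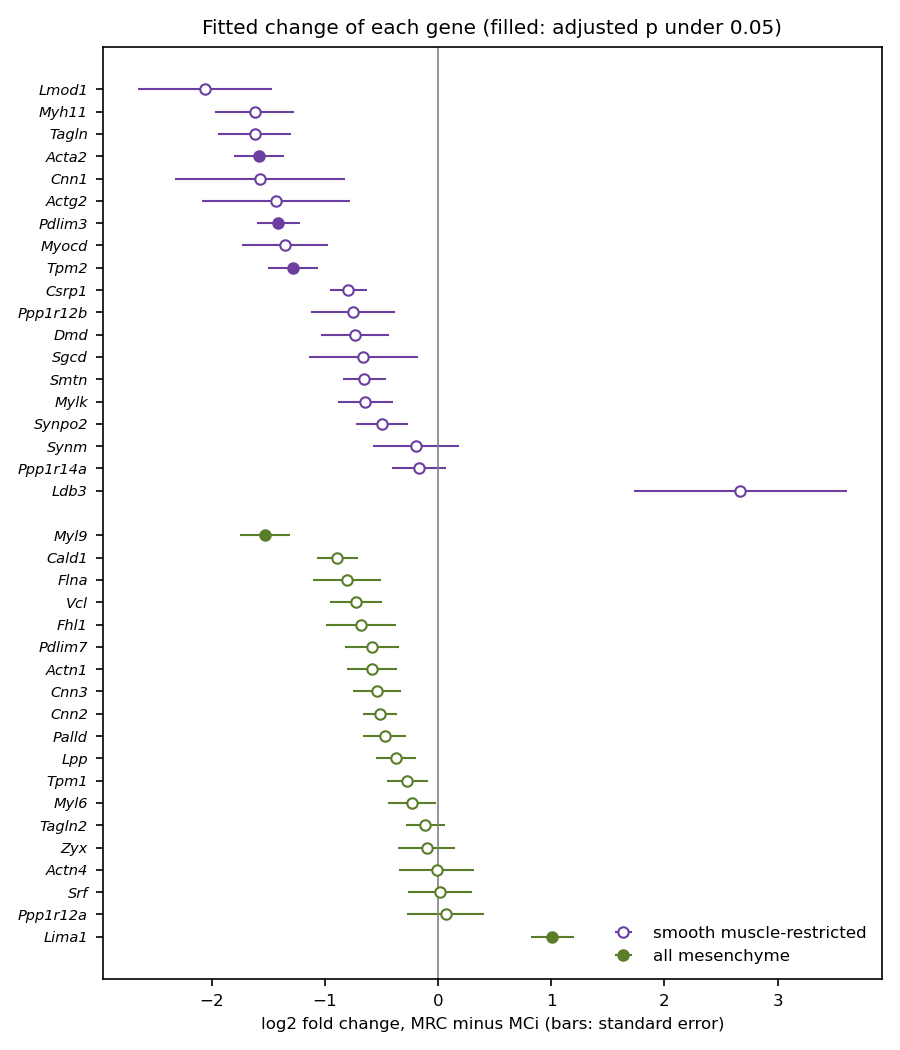
Fitted log2 fold change (MRC minus MCi, x axis) of each of the 38 genes with its standard error, in 5 MRC and 5 MCi libraries. Filled points passed the adjusted p threshold of 0.05: Acta2, Pdlim3, Tpm2 and Myl9 on the left and Lima1 on the right.

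Of the genes of the motor and the actin filament, Acta2, Myl9 and Tpm2 fell in MRC. Acta2 (ENSMUSG00000035783, GRCm38 chromosome 19, 34241090 to 34255336, minus strand), which encodes the smooth muscle actin of vessels and myofibroblasts, was at 372, 423, 492, 588 and 352 CPM (exon reads scaled to library size) in MRC 1 to 5, against 1123, 1487, 1779, 1138 and 1138 CPM in MCi 1 to 5. Every MRC library lay below every MCi library, and the MCi mean was 2.99 times the MRC mean. The log2 fold change was −1.58 ± 0.22 (SE, edgeR adjusted p = 0.0140). Myl9 (ENSMUSG00000067818, chromosome 2, 156775420 to 156781658, plus strand), the regulatory light chain that the kinase phosphorylates, was at 183, 226, 248, 274 and 147 CPM in MRC 1 to 5, against 553, 740, 742, 545 and 542 CPM in MCi 1 to 5. The groups did not overlap, and the log2 fold change was −1.53 ± 0.22 (edgeR adjusted p = 0.0140). Both calls were lost when MCi1, MCi2 or MCi5 was left out. In edgeR the adjusted p became 0.0509, 0.0606 and 0.0611 for Acta2 (8.26e-10 to 0.0611 over 24 alternatives) and 0.0554, 0.0606 and 0.0611 for Myl9 (1.55e-09 to 0.0611).

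Tpm2 (ENSMUSG00000028464, chromosome 4, 43514711 to 43523765, minus strand), a tropomyosin that lies along the actin filament, was at 124, 132, 123, 207 and 115 CPM in MRC 1 to 5, against 303, 412, 417, 286 and 287 CPM in MCi 1 to 5. The groups did not overlap, with MRC4 nearest to MCi (log2 fold change −1.28 ± 0.22, edgeR adjusted p = 0.0315). The call held without MRC4 (adjusted p = 0.0114) and was lost without each of the other 9 libraries (0.0589 to 0.107, within 9.75e-06 to 0.107 over 24 alternatives). Pdlim3 (ENSMUSG00000031636, chromosome 8, 45885485 to 45919546, plus strand), a scaffold protein that links alpha-actinin to filaments, was at 87.9, 72.8, 84.8, 73.2 and 73.5 CPM in MRC 1 to 5, against 146, 164, 219, 242 and 269 CPM in MCi 1 to 5. MRC libraries were close together, with an SD of 7.30 CPM around a mean of 78.4 CPM, while MCi libraries averaged 208 ± 51.8 CPM (SD, n = 5 each). Its log2 fold change of −1.41 ± 0.19 (edgeR adjusted p = 0.0125) stayed past the threshold whichever of the 10 libraries was dropped (0.0204 to 0.0444), but not with the replicate number as a block (0.0643, the highest of 4.97e-09 to 0.0643 over 24 alternatives).

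**Figure D2:**
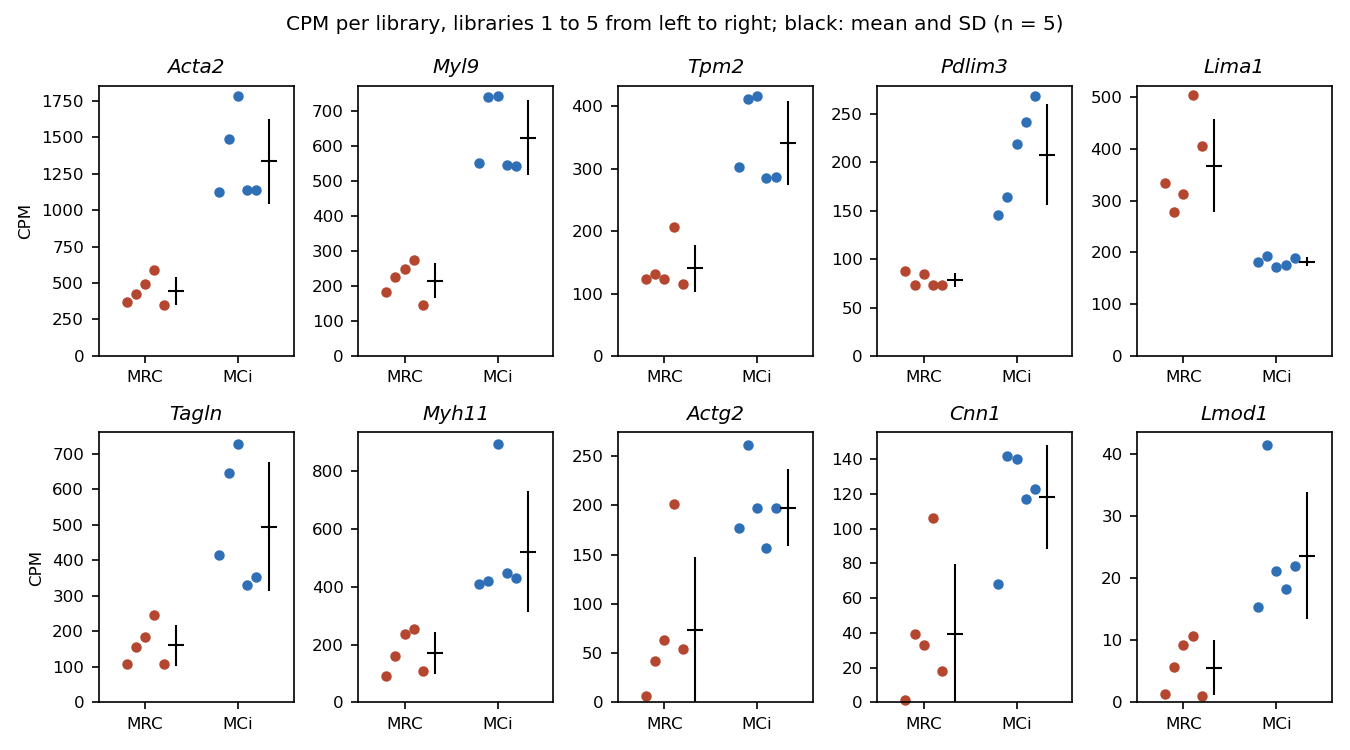
CPM (y axis, linear from 0) in each of 5 MRC and 5 MCi libraries for 10 genes, with mean and SD in black, cut off at 0 for Actg2 and Cnn1. Acta2, Myl9, Tpm2, Pdlim3, Tagln, Myh11 and Lmod1 have all MCi points above all MRC points, Lima1 the reverse, and Actg2 and Cnn1 overlap through MRC4 (201 and 106 CPM).

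Tagln, Myh11, Csrp1 and Cald1 did not overlap between the groups but did not pass. Tagln, which encodes the actin-bundling protein transgelin, was at 108, 155, 183, 247 and 109 CPM in MRC 1 to 5, against 415, 646, 728, 329 and 352 CPM in MCi 1 to 5 (log2 fold change −1.62 ± 0.32, edgeR adjusted p = 0.0583). Dropping MRC4 took it past the threshold (adjusted p = 0.0427, within 0.0427 to 0.157 over the 10 libraries dropped), and dropping any of the other 9 did not. Myh11, the smooth muscle myosin heavy chain, was at 92.2, 159, 238, 253 and 108 CPM in MRC 1 to 5, against 411, 419, 894, 449 and 432 CPM in MCi 1 to 5 (−1.62 ± 0.35, edgeR adjusted p = 0.0786). The MCi means of these genes were 3.08 and 3.07 times the MRC means. Csrp1, a LIM protein of actin bundles, had a mean of 495 ± 53.5 CPM in MRC against 853 ± 76.6 CPM in MCi (SD, n = 5 each), and the actin and myosin binding gene Cald1, caldesmon, had a mean of 252 ± 25.6 CPM in MRC against 467 ± 92.8 CPM in MCi. Their changes were smaller, at −0.79 ± 0.16 for Csrp1 and −0.89 ± 0.18 for Cald1 on the log2 scale (edgeR adjusted p = 0.0642 and 0.0633).

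Actg2, Cnn1 and Lmod1 varied far more among MRC libraries than Acta2 did. Actg2, the smooth muscle actin of the gut wall, was at 6.45, 42.0, 63.8, 201 and 54.2 CPM in MRC 1 to 5, against 177, 261, 197, 157 and 197 CPM in MCi 1 to 5. Cnn1, calponin of differentiated smooth muscle, was at 1.43, 39.1, 33.2, 106 and 18.1 CPM in MRC 1 to 5, against 68.0, 142, 140, 117 and 123 CPM in MCi 1 to 5. MRC1 was lowest for both and MRC4 highest, within the MCi range. Lmod1, a leiomodin that seeds actin filaments, was at 1.43, 5.70, 9.17, 10.7 and 0.993 CPM in MRC 1 to 5, against 15.3, 41.4, 21.1, 18.3 and 22.0 CPM in MCi 1 to 5, without overlap. The highest MRC library exceeded the lowest by 73.7-fold for Cnn1, 31.1-fold for Actg2 and 10.8-fold for Lmod1, but by 1.67-fold for Acta2. Among MCi libraries the same ratios were 2.09, 1.66, 2.71 and 1.58. None of the 3 passed (log2 fold changes −1.43 ± 0.65 for Actg2, −1.57 ± 0.75 for Cnn1 and −2.06 ± 0.59 for Lmod1, with edgeR adjusted p of 0.306, 0.331 and 0.166). Leaving out MRC4 gave −2.25 for Actg2 and −2.36 for Cnn1.

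**Figure D3:**
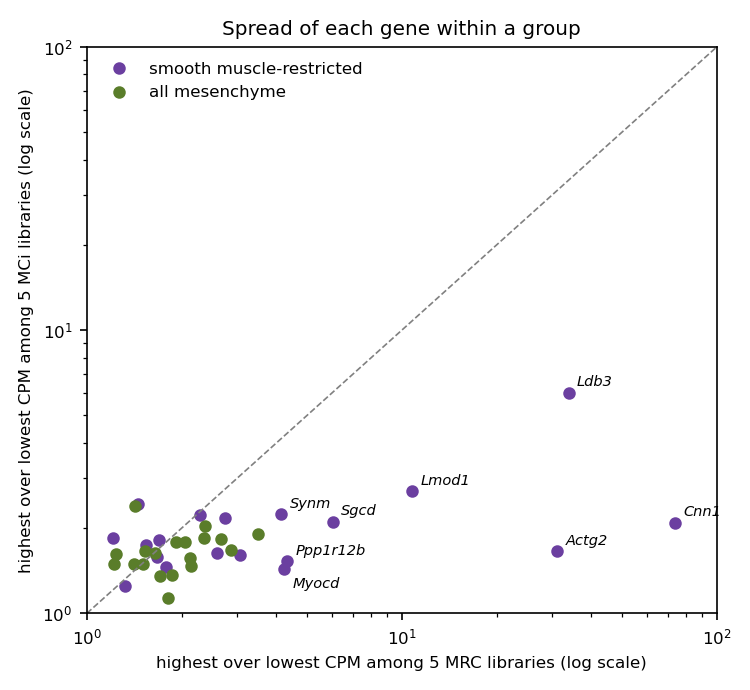
Ratio of the highest to the lowest CPM among 5 MRC libraries (x axis) and among 5 MCi libraries (y axis) for the 38 genes, both on log scales, with the dashed line at equal ratios. Cnn1, Ldb3, Actg2 and Lmod1 lie far to the right, with MRC ratios of 73.7, 33.9, 31.1 and 10.8.

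The genes of the kinase and phosphatase that set contraction did not pass. Mylk, the myosin light chain kinase, was at 105, 171, 168, 271 and 190 CPM in MRC 1 to 5, against 203, 287, 330, 302 and 287 CPM in MCi 1 to 5 (log2 fold change −0.64 ± 0.24, edgeR adjusted p = 0.242). The ranges overlapped through MRC4. Ppp1r12a, the subunit that targets the phosphatase to myosin, had a mean of 37.4 ± 21.9 CPM in MRC against 35.9 ± 9.38 CPM in MCi, and Ppp1r14a, an inhibitor of that phosphatase, 17.9 ± 3.98 CPM in MRC against 20.2 ± 5.61 CPM in MCi (SD, n = 5 each). Both differences were smaller than the spread within a group. Ppp1r12b, the muscle form of the targeting subunit, had a mean of 63.0 ± 33.2 CPM in MRC against 106 ± 17.5 CPM in MCi, but 20% of its MRC reads and 20.6% of its MCi reads mapped uniquely, so its level is uncertain.

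Of the transcription factors of the programme, neither passed. Myocd, the cofactor of SRF in smooth and cardiac muscle, was at 7.40, 10.1, 9.83, 3.62 and 2.38 CPM in MRC 1 to 5, against 14.0, 14.2, 18.7, 18 and 19.9 CPM in MCi 1 to 5. The groups did not overlap, and the log2 fold change of −1.35 ± 0.38 did not pass (edgeR adjusted p = 0.163) and was −0.89 without MRC4 and MRC5. Srf was at 25.1, 17.6, 15.5, 36.7 and 21.7 CPM in MRC 1 to 5, against 27.0, 17.3, 31.1, 24.4 and 15.3 CPM in MCi 1 to 5 (log2 fold change 0.02 ± 0.28, edgeR adjusted p = 0.984). The ranges overlapped, and 30.2% of its reads in MRC and 34.0% in MCi mapped uniquely.

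Within their gene families, 6 muscle-restricted genes and Myl9 took a smaller mean share in MRC, a measure that does not depend on how libraries are scaled to each other. Shares are percentages of exon reads per exon length summed over the family, and were chosen after the data were seen, so they are given with no test. Among 4 actin genes (Acta2, Actg2, Actb and Actg1), Acta2 made up 28.1%, 32.5%, 28.4%, 21.7% and 14.1% in MRC 1 to 5, against 42.3%, 55.2%, 60%, 56.8% and 55.6% in MCi 1 to 5. The share was lowest in MRC4 and MRC5, where Actg1 was highest, and the shares of MRC 1 to 3 also lay below those of every MCi library. Among the light chains Myl9, Myl12a and Myl12b, Myl9 made up 38.2% ± 8.9 in MRC and 66.4% ± 2.89 in MCi (SD, n = 5 each). Tpm2 made up 12.5% ± 3.74 of tropomyosin in MRC and 23.1% ± 2.65 in MCi, and Tagln 27.9% ± 7.0 of the transgelin pair with Tagln2 in MRC and 51.9% ± 11.2 in MCi. For these 4 genes the groups did not overlap. The levels of the shares depend on multi-mapping reads, since in MRC 47.2% of Tpm3 reads and 26.8% of Tpm4 reads mapped uniquely. From unique reads, Tpm2 made up 20.2% to 29.1% in MRC and 34.8% to 44% in MCi, and Myl9 36% to 62.1% in MRC and 75.5% to 83.5% in MCi, again without overlap. Myh11 among myosin heavy chains (51.7% ± 15.2 in MRC and 70.7% ± 8.36 in MCi), Actg2 among actins (3.89% ± 2.93 in MRC and 9.26% ± 1.72 in MCi) and Cnn1 among calponins (9.84% ± 10.1 in MRC and 18.3% ± 4.28 in MCi) had lower means in MRC with overlapping ranges.

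**Figure D4:**
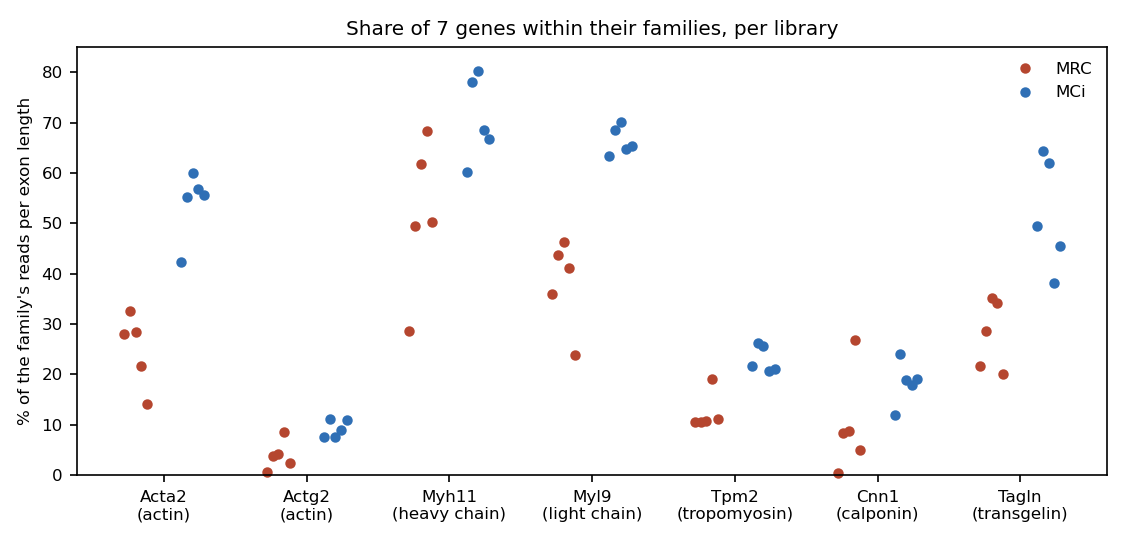
Percentage of a family's exon reads per exon length taken by 1 gene (y axis, total reads), for 7 genes in 5 MRC libraries (left of each pair) and 5 MCi libraries. The Acta2, Myl9, Tpm2 and Tagln shares of MRC lie below those of MCi in every library, with Acta2 at 14.1% to 32.5% in MRC and 42.3% to 60% in MCi.

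The cytoskeletal paralogues and adhesion genes did not pass. Tagln2, the non-muscle transgelin, had a mean of 531 ± 68.9 CPM in MRC against 574 ± 83.5 CPM in MCi (SD, n = 5 each), Tpm1 483 ± 86.3 CPM in MRC against 584 ± 83.6 CPM in MCi, and Myl6, the essential light chain, 353 ± 75.4 CPM in MRC against 415 ± 92.4 CPM in MCi. Zyx, the adhesion protein zyxin, had a mean of 237 ± 67.0 CPM in MRC against 255 ± 68.3 CPM in MCi. The ranges of the groups overlapped for all 4. Flna, the filament cross-linker filamin A, was at 967, 1130, 966, 549 and 426 CPM in MRC 1 to 5, against 1550, 1051, 1921, 1283 and 1219 CPM in MCi 1 to 5 (log2 fold change −0.80 ± 0.30, edgeR adjusted p = 0.239). MRC4 and MRC5 were its lowest libraries, and the log2 fold change was −0.46 without them. Vcl (vinculin), Actn1 (an alpha-actinin), Cnn2 and Cnn3 (calponins of non-muscle cells), Pdlim7, Palld (palladin), Lpp and Fhl1 had log2 fold changes between −0.72 and −0.37 and edgeR adjusted p of 0.180 to 0.323. Per exon length, on the deposited RPKM scale, the highest mean level in MRC was that of Myl6 (452 ± 72.4 RPKM) and in MCi that of Acta2 (759 ± 152 RPKM), which had rank 5 in MRC (215 ± 45.9 RPKM).

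Lima1 was the gene of the set that rose. It encodes an actin-bundling LIM protein (ENSMUSG00000023022, chromosome 15, 99778470 to 99875428, minus strand), with 335, 279, 312, 505 and 406 CPM in MRC 1 to 5, against 182, 193, 171, 176 and 190 CPM in MCi 1 to 5. Every MRC library lay above every MCi library (log2 fold change 1.01 ± 0.19, edgeR adjusted p = 0.0488). Reads that mapped uniquely made up 27.5% of its total in MRC and 24.2% in MCi. With unique exon reads the log2 fold change was 1.22 (adjusted p = 0.0750), and the call ended without any 1 of the 10 libraries (adjusted p = 0.0542 to 0.150, within 1.84e-05 to 0.150 over 24 alternatives). Its level is therefore uncertain. Ldb3, a protein of the Z-band of striated muscle, was at 1.67, 1.55, 7.86, 26.8 and 52.6 CPM in MRC 1 to 5, against 0.676, 3.99, 4.07, 3.32 and 2.18 CPM in MCi 1 to 5. MRC4 and MRC5 lay far above the other libraries, and the log2 fold change of 2.67 ± 0.94 did not pass (edgeR adjusted p = 0.225) and was 0.39 without both.

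Libraries MRC4 and MRC5 stood apart from the other MRC libraries. Mitochondrial genes took 6.66% and 4.28% of their exon reads and 0.706% to 1.58% in the other 8 libraries. The 5 fibroblast markers summed to 9563 and 8406 CPM in MRC4 and MRC5, 38837 to 45811 CPM in the other MRC libraries and 15238 to 28948 CPM in MCi. The summed level of 6 epithelial markers was 8.12, 153, 1837, 11990 and 15808 CPM in MRC 1 to 5 and 5.03 to 782 CPM in MCi. Epcam was at 910 and 861 CPM in MRC4 and MRC5 and up to 107 CPM in the other 8 libraries. MRC3 also lay above every MCi library in the sum, so leaving out MRC4 and MRC5 does not remove all of the imbalance. With an epithelial score of these 6 markers as covariate, log2 fold changes were −1.60 for Acta2, −1.55 for Myl9, −1.33 for Tpm2 and −1.41 for Pdlim3. Each passed (edgeR adjusted p = 0.0183, 0.0172, 0.0309 and 0.0137), and Lima1 did not (0.88, edgeR adjusted p = 0.0619). Of all 12127 genes, 80 were then lower and 28 higher. The part of epithelial transcripts in the values of MRC4 and MRC5 alone was not tested. Without both libraries, 5 genes were called lower (Acta2, Myl9, Tpm2, Pdlim3 and Tagln) and 1 higher (Lima1), compared with 0.653% and 0.379% of all genes. Medians were then −0.89 for muscle-restricted genes and −0.39 for genes of mesenchyme at large. Several members had smaller changes without these libraries. Sgcd, a sarcoglycan of the muscle membrane, was at 36.1, 42.7, 32.8, 7.08 and 9.34 CPM in MRC 1 to 5, against 39.6, 53.6, 53.8, 25.5 and 29.1 CPM in MCi 1 to 5, and its log2 fold change was −0.66 ± 0.48 over all libraries and −0.11 without both. Likewise Ppp1r12b had −0.75 and −0.28, and Dmd, dystrophin, −0.73 and −0.37. Synm, an intermediate filament gene, had −0.19 and 0.21, with 9.27% of its reads in MRC and 10.7% in MCi mapping uniquely. Synpo2 and Smtn, actin-binding genes of the contractile cell, had −0.49 and −0.65 over all libraries, and −0.46 and −0.65 without both. Actn4, the alpha-actinin of non-muscle cells, was at 581, 507, 678, 1295 and 1452 CPM in MRC 1 to 5, against 752, 691, 841, 1156 and 1119 CPM in MCi 1 to 5, highest in the libraries numbered 4 and 5 of both groups.

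**Figure D5:**
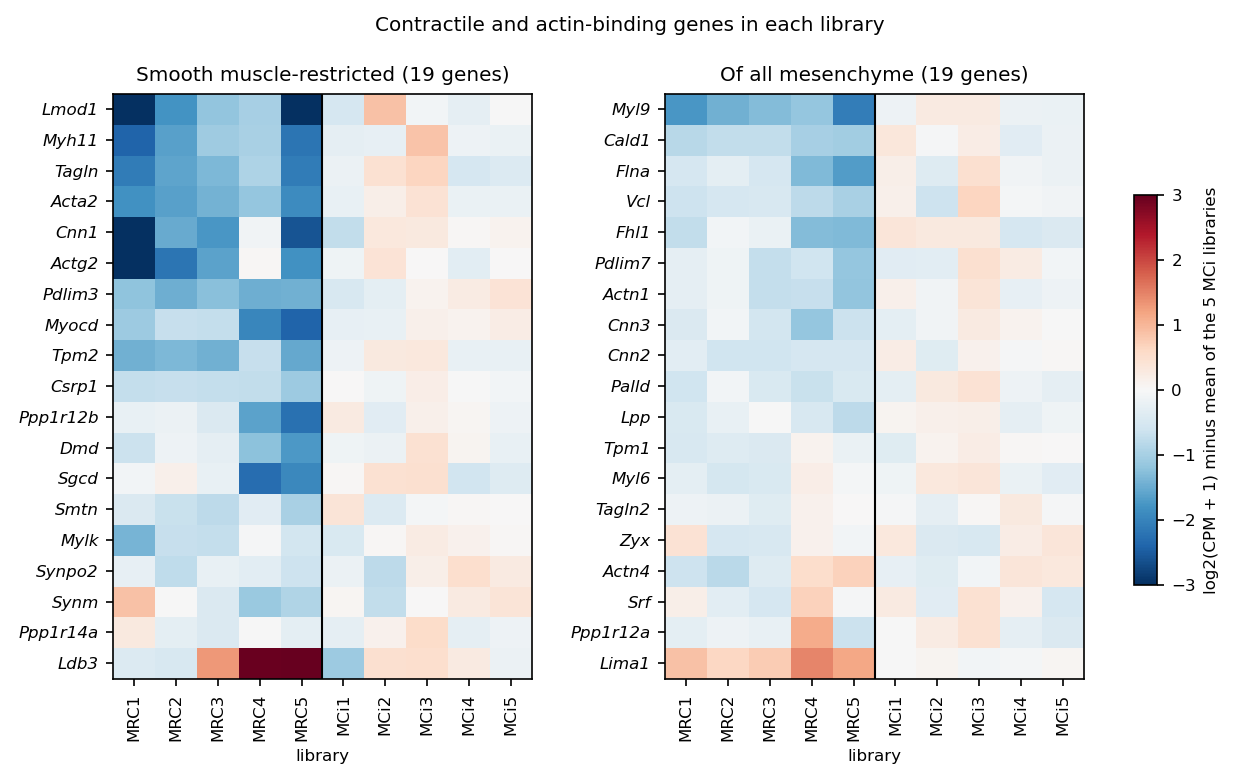
Log2(CPM + 1) of the 38 genes in each MRC library (left of the line) and MCi library, as the difference from the mean of the 5 MCi libraries, in colour. Values beyond 3 in either direction are drawn at 3. Lmod1, Cnn1 and Actg2 are palest in MRC4 among MRC libraries, and Ldb3 is high in MRC4 and MRC5 (26.8 and 52.6 CPM).

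Libraries 1 to 3 of each group held 3941032 to 4761017 exon reads and libraries 4 and 5 held 6142562 to 8738115, although the labels name no batch. Within libraries 1 to 3, 6 genes of the set were called lower (Acta2, Myl9, Tpm2, Pdlim3, Tagln and Cald1) and 0 higher, where 0.565% and 0.236% of all genes were called. In edgeR Lima1 then had an adjusted p of 0.0783. Within libraries 4 and 5, 17 were lower and 2 higher, where 10.7% and 15.5% of all genes were called. That fit set 2 libraries against 2. Epithelial markers summed to 11990 and 15808 CPM in MRC4 and MRC5 and to 541 and 571 CPM in MCi4 and MCi5. MCi4 and MCi5 were also the closest pair of 1 group (chi-square per degree of freedom 7.77). Libraries 1 to 3 still included MRC3, where these markers summed to 1837 CPM. Acta2 had log2 fold changes of −1.77 within the first set and −1.33 within the second, Myl9 −1.63 and −1.43, and Pdlim3 −1.11 and −1.87, each past the threshold in edgeR. Tagln had −2.0 and −0.99, and Tpm2 −1.58 and −0.89, neither passing in the second set (edgeR adjusted p = 0.127 and 0.0887). In DESeq2 over all libraries, 12 genes of the set were lower and 2 higher, compared with 2.53% and 4.63% of all genes.

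Other genes of actomyosin and of contraction signalling, none of them in the set, gave 0 calls in edgeR among 40 tested, where 5 had an unadjusted p under 0.05, all lower in MRC, and DESeq2 called 2. The 10 genes of calcium and cGMP signalling in smooth muscle were all below 0 over all libraries, with a median log2 fold change of −0.72. Without MRC4 and MRC5 these 10 genes ranged from −1.56 to 0.25, so not all stayed below 0. Over all libraries the smallest p among them belonged to Atp2a2, the calcium pump of the reticulum (514, 447, 393, 374 and 361 CPM in MRC 1 to 5, against 1005, 573, 470, 719 and 703 CPM in MCi 1 to 5, edgeR adjusted p = 0.183), its regulator Pln and Gucy1b3, a subunit of the nitric oxide receptor. Pln had 18 reads in all MRC libraries together. Of its reads, 0% in MRC and 1.79% in MCi mapped uniquely, so its level is uncertain. Of 12 filament and membrane anchors 9 were below 0, with a median of −0.41. Nexn was at −0.66 (edgeR adjusted p = 0.311) and Dtna at −0.79 (edgeR adjusted p = 0.314) on the log2 scale. Without MRC4 and MRC5 Nexn was at −0.48 and Dtna at −0.75, and not all of the 9 anchors stayed below 0. The muscle filament gene Des had no stable direction: its log2 fold change was 0.30 over all libraries, with 398 CPM in MRC4 and 107 to 174 CPM in the other MRC libraries, −0.18 to 0.47 with 1 library left out and −0.33 without MRC4 and MRC5. The 8 non-muscle actomyosin genes had a median of 0.06, with the smallest p for Actg1, a cytoplasmic actin (0.67 ± 0.32, edgeR adjusted p = 0.330), Myl12b and Tpm3. Actg1 was at 1600 and 1801 CPM in MRC4 and MRC5 and 675 to 935 CPM in MRC 1 to 3, and its log2 fold change was 0.15 without MRC4 and MRC5 and −0.03 within libraries 1 to 3. The 10 genes of the RhoA and MRTF axis had a median of 0.22, with the smallest p for Limk1, a kinase that acts on cofilin (0.40 ± 0.21, edgeR adjusted p = 0.367), Rock1 and Diaph1.

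Summed levels of markers of several other cell types differed between the groups, while few single markers passed. The summed level of 6 pericyte markers was 723 to 1368 CPM in MRC and 1531 to 1994 CPM in MCi, and that of 4 markers of enteric glia 4.54 to 78.7 CPM in MRC and 107 to 357 CPM in MCi. Neither range overlapped. Of the 6 pericyte genes tested, Kcnj8 alone passed (−3.41 ± 0.39 on the log2 scale, edgeR adjusted p = 0.00483). Abcc9 was at −2.62 without overlap of the groups (edgeR adjusted p = 0.0673), Cspg4 at −1.16, Pdgfrb at −0.43, Rgs5 at −0.07 and Notch3 at 0.79. Of the 4 glial genes tested, 0 passed (edgeR adjusted p = 0.196 to 0.379), and all 4 were below 0. Markers of interstitial cells of Cajal summed to 21.0 to 52.4 CPM in MRC and 59.2 to 124 CPM in MCi (3 of 3 tested, 0 passed, edgeR adjusted p = 0.0633 to 0.913), and those of mesothelium to 0 to 4.72 CPM in MRC and 9.81 to 559 CPM in MCi (3 of 4 tested, of which Msln passed, edgeR adjusted p = 0.0315). Endothelial markers stayed at 0.157 to 10.1 CPM in MRC and 0.676 to 8.31 CPM in MCi (0 of 3 tested). Leukocyte markers were at 0.777 to 19.9 CPM in MRC and 0.139 to 2.63 CPM in MCi, with Cd79a at 0 in every MCi library. The part of pericytes, glia, Cajal cells and mesothelium in the contractile values was not tested. The smooth muscle markers Myh11, Actg2, Cnn1, Des, Lmod1 and Synpo2 summed to 324, 409, 531, 1043 and 416 CPM in MRC 1 to 5 and 879 to 1492 CPM in MCi. MRC4 alone reached the MCi range, with Des at 398 CPM. In MRC1 the sum came mainly from Des (144 CPM), Myh11 (92.2 CPM) and Synpo2 (79.1 CPM). Actg2 was there at 6.45 CPM and Cnn1 and Lmod1 at 1.43 CPM each. These transcripts were thus read in both gates, but some were scarce in MRC1. The 8 striated muscle markers summed to 1.43 to 33 CPM in MRC and 17.1 to 44 CPM in MCi (1 of 8 tested, 0 passed), with Myh2 at 0 in every MRC library and Myh1 and Myh4 at 0 in every MCi library. The MCi sums were mostly Actc1 (15.3 to 43.3 CPM), and the highest MRC sum, in MRC5, was mostly Acta1 (29 CPM).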

How the data were processed

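Per the labels' protocols, cDNA was amplified from total RNA with the SMART-Seq v4 kit, which does not mark strand, so overlapping antisense genes cannot be told apart. The authors deposited 1 table per library, and per the file headers each gives counts of total and unique exon reads and RPKM values. The genome build was GRCm38, per the submitters' processing notes, with aligner and annotation not given in the sources used here. RPKM as deposited equalled exon reads over exon length and total gene reads, and were used for levels between genes and as an alternative.

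Total exon reads were tested with edgeR 4.0.16 (quasi-likelihood, robust, TMM factors, R 4.3.3) after filterByExpr (minimum count 10, minimum total 15), which left 12127 genes. Benjamini-Hochberg adjustment ran over these genes, and calls were made at 0.05. The contrast is MRC minus MCi, and each SE was derived from the fold change and its F statistic. CPM are exon reads relative to those of the genes kept, scaled by TMM. The limit set by 3 reads was 0.343 to 0.761 CPM before TMM scaling and covers counting error only, since PCR copies were not removed by molecular identifiers. In every pair of libraries of 1 group, counts differed beyond sampling noise (chi-square per degree of freedom 7.77 or more).

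Members and lists were chosen with earlier results of these data known. Every member may be named; of 4 lists of other genes, the rule names those past the threshold and the 3 of smallest p. A gene that this rule names is not reported here. Markers were also listed for other cell types. Alternatives were DESeq2 1.42.0, other scalings and filters, the replicate number as a block, unique reads, libraries left out, an epithelial score as covariate, limma 3.58.1 on log2(RPKM + 1) or log2(RPKM + 0.1) and a threshold of 0.01. Fits within libraries 1 to 3 or 4 and 5, and family shares, were added after seeing the data. The procedure was tested on simulated data. Promoters are RefSeq windows on GRCm38.p6. Tables and plots were made with pandas 2.3.3 and matplotlib 3.10.9.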

Additional observations from a re-analysis of the deposited data

Results flagged for a closer look

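In 5 of 76 pairs of a gene and a group, 1 library lay far from the other 4 by Dixon's criterion for 5 samples (gap over range above 0.71), and chance marks about 1 in 20. In MRC these were Tpm2 in MRC4 (207 CPM, others 115 to 132 CPM), Ppp1r12a in MRC4 (76.2 CPM, others 21.9 to 31.1 CPM) and Csrp1 in MRC5 (400 CPM, others 506 to 528 CPM). In MCi they were Myh11 in MCi3 (894 CPM, others 411 to 449 CPM) and Lmod1 in MCi2 (41.4 CPM, others 15.3 to 22.0 CPM).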

How the results depend on the processing

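The direction and side of the threshold of single genes held in 822 of 947 refits over 25 alternatives (40 lost and 48 gained a call, 37 changed sign). The 822 were mostly uncalled genes that stayed uncalled. Only Acta2, Pdlim3, Tpm2, Myl9 and Lima1 had a call to lose, so the 40 lost calls all fell on these genes. The 4 genes called lower became 12 in DESeq2, 12 and 8 in limma on log2(RPKM + 1) and log2(RPKM + 0.1), 9 without its filter, 17 within libraries 4 and 5, 0 at a threshold of 0.01 and 1 to 5 with 1 library left out. The 1 called higher became 2 in DESeq2 and within libraries 4 and 5. It became 0 without the count filter, with unique reads, with the epithelial covariate, in unfiltered limma, within libraries 1 to 3, at 0.01 and with any 1 library left out (0 to 0). Unique reads also ended the call of Tpm2 (edgeR adjusted p = 0.0503, within 9.75e-06 to 0.107 over its alternatives).

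Over all genes, the 44 lower became 301 in DESeq2, 81 without MRC4 and MRC5, 80 with the covariate, 229, 148 and 141 in limma, 67 and 1407 within libraries 1 to 3 and 4 and 5, 10 at 0.01 and 14 to 41 with 1 left out. The 9 higher became 550, 47, 28, 15 (limma, RPKM + 1), 28, 2053, 2 and 2 to 10 in the same settings. Other contraction genes called lower were 2 in DESeq2, 1 without MRC4 and MRC5, 1 in each limma fit, 11 within libraries 4 and 5 (5 higher) and 0 to 1 with 1 left out. In limma the median of all genes was −0.21 (RPKM + 1) and −0.26 (RPKM + 0.1), with medians of −1.35 (RPKM + 0.1) for muscle-restricted genes and −0.64, −0.69 and −0.64 for the mesenchymal genes. The limma fits used RPKM without TMM factors, which were 0.8319 to 0.9663 in MRC and 1.064 to 1.108 in MCi libraries. The causes were not tested.

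Signs turned only for genes with small changes. Ppp1r12a had −0.07 with upper-quartile factors, −0.26 without MRC4 and MRC5, −0.03 with the covariate, −0.26, −0.29 and −0.26 in limma, −0.49 within libraries 1 to 3 and −0.37 to 0.21 with 1 left out. Srf had −0.11, −0.01 (no filter), −0.24, −0.20, −0.24 and −0.20 (limma), −0.37 and −0.20 to 0.15. Actn4 had 0.01 with DESeq2 factors and in DESeq2, 0.02 with unique reads, 0.20 within libraries 4 and 5 and −0.25 to 0.13. Zyx had 0.02 within libraries 1 to 3 and −0.26 to 0.02. Synm had 0.21 without MRC4 and MRC5 and 0.45 within libraries 1 to 3. Within libraries 4 and 5, Ppp1r14a had 0.01 and Myl6 0.27.

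Same-numbered libraries of both groups correlated in their deviations by 0.56, −0.25, 0.06, 0.35 and 0.49, so the numbers were not taken as pairs. Only libraries 1 and 5 correlated best with their own number. With the replicate number as a block, 2 genes were lower (Acta2 and Myl9), 0 higher, 15 of all genes higher, and Ppp1r12a had −0.06.

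Depth limits genes with few reads, such as Lmod1 and Cnn1 in MRC1. Few unique reads limit Lima1, Ppp1r12b, Synm and Srf, and Pln outside the set.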

Other observations

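Actc1, the actin of heart muscle, was at 0.239, 3.37, 5.46, 0.472 and 2.78 CPM in MRC 1 to 5, against 15.3, 20.2, 43.3, 24.4 and 16.9 CPM in MCi 1 to 5. Every MRC library lay below every MCi library, and the log2 fold change of −3.29 ± 0.67 did not pass (edgeR adjusted p = 0.0635). Of Actc1 reads, 62.5% in MRC and 63% in MCi mapped uniquely. Acta1, the actin of skeletal muscle, was at 29.0 CPM in MRC5 and at 0 to 0.655 CPM in the other 9 libraries, too few reads to be tested. Ckm, the muscle creatine kinase, reached 5.35 CPM in MRC4 and 0 to 1.13 CPM in the other libraries.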
